A study of Mus musculus with 12 samples.

Results

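The genes described here are 10 transcripts at the centre of epithelial-to-mesenchymal transition (EMT): the cadherins *Cdh1*, *Cdh2* and *Cdh11*, the epithelial and mesenchymal marker genes *Epcam* and *Vim*, and the transcription factor genes *Snai1*, *Zeb1*, *Zeb2*, *Twist1* and *Grhl2*. They were taken by symbol from 38911 genes, after the counts of all RefSeq transcripts of a gene had been added up, and all 10 passed the filter on low counts that left 16966 genes for testing. PolyA RNA was sequenced from day 4 gastruloids, which are aggregates of mouse embryonic stem (ES) cells that break symmetry and elongate in culture. All were made from the E14TG2a line, kept in 2iLIF and plated at 200 cells, and they were treated between day 3 and day 4. The groups were 0× glucose (0 mM), 1× glucose (21.25 mM), 3× glucose (63.75 mM), and 5 mM 2-deoxy-D-glucose (2-DG), a glucose analog that blocks hexokinase, given in 1× glucose. The study of these gastruloids describes 2-DG also as a competitor of mannose in protein glycosylation. Each group had 3 libraries, from ES cell passages 13, 15 and 16, so that every passage was present in every group. A library held pooled whole gastruloids of 1 cell line, and the 1× glucose libraries were not labelled as vehicle controls of 2-DG.

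In the gastrulating embryo, cells of the epiblast lose the adherens junctions built on E-cadherin (*Cdh1*), take up N-cadherin (*Cdh2*), and leave the epithelium through the primitive streak as mesoderm. *Snai1*, *Zeb1*, *Zeb2* and *Twist1* encode repressors or activators of this program that bind E-box motifs, and Snail and Zeb proteins are known to repress *Cdh1*. Grainyhead-like factors such as *Grhl2* act on the other side and maintain the expression of epithelial junction genes. Neural cells also exchange E-cadherin for N-cadherin, so that *Cdh2* marks both mesodermal and neural tissue.

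The 250 bases before the start of a gene were searched on both strands for the E-box CAGGTG, which reads CACCTG on the other strand, in the RefSeq promoters of GRCm38.p6. This E-box was found in 17.2% of 32851 promoters. Promoter entries were read for 5 of the 10 genes (*Epcam*, *Vim*, *Snai1*, *Zeb2* and *Twist1*). *Cdh1*, *Cdh2*, *Cdh11*, *Zeb1* and *Grhl2* are named only. The *Epcam* promoter held 2 E-boxes, 187 and 19 bases before the start, and the *Snai1* promoter held 1, at 126 bases. Both are shown because among the 5 genes only these had this motif, at chr17:87635729-87635978 for *Epcam* and chr2:167537945-167538194 for *Snai1*, both on the plus strand. The promoter of the claudin gene *Cldn4*, at chr5:134946935-134947184 on the minus strand, is shown beside them because this junction gene rose with 2-DG and its E-box lies 14 bases before the start. It was chosen for that E-box, and of the 3 junction genes with the lowest p with 2-DG, *Dsp* and *Cldn3* had no such E-box in this window and *F11r* had 1, at 122 bases. Capitals mark the E-box, and each sequence runs 5′ to 3′ on the strand of its gene.
Epcam: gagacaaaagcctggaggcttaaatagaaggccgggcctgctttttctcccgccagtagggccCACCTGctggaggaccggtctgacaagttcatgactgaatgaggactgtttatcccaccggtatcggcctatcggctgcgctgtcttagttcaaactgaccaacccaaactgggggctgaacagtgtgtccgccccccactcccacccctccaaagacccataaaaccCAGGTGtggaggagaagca
Snai1: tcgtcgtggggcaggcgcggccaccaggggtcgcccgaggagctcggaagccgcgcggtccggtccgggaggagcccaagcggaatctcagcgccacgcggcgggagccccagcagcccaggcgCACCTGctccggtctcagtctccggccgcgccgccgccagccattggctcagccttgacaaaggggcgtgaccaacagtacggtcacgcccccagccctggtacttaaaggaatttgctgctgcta
Cldn4: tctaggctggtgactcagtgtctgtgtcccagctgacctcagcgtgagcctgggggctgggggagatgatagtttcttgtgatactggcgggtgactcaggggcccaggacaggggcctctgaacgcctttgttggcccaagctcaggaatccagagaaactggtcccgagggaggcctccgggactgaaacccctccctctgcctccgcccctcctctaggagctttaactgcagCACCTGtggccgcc
The Grainyhead-like motif AACCNGTT, present in 1.79% of all promoters, was in no entry of the 5 genes. A match or its absence describes only these letters in this window.

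Depth was 31902471 to 45956080 counts per library. The 1× glucose libraries held 38439471 to 45956080, more than any library of 2-DG (33666332 to 37496932) or of 0× glucose (31902471 to 34266196). The 3× glucose libraries held 33336139 to 40744645. Mitochondrial genes took 1.91% to 2.24% of the counts. No single library stood apart by depth, and any pair of libraries had the same value in at most 9.67% of transcripts once those averaging under 10 counts were set aside. Levels are given as TMM-scaled CPM (counts scaled to library size), and the values of a group are listed in the order of passages 13, 15 and 16. Differences between groups are log2 fold changes from edgeR's quasi-likelihood test, each with its standard error (SE), and a gene was called at a Benjamini-Hochberg adjusted p under 0.05 over all genes tested. Where passage as a block in the fit changed a call, that value stands beside the first. Fits between treatments that left out 1 library had no block, so calls made with the block were not put to that test.

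Per kb of transcript, the cadherin balance of 1× glucose gastruloids lay far on the N-cadherin side. On this scale the level of *Cdh2* was 65.2 ± 3.06 CPM per kb (SD, n = 3), that of the intermediate filament gene *Vim* 62.0 ± 7.28, and that of *Cdh1* 8.88 ± 2.32. Among the transcription factor genes, the order was *Snai1* (32.7 ± 11.1), *Zeb2* (23.3 ± 4.19), *Twist1* (21.4 ± 12.5) and *Zeb1* (14.6 ± 3.74), whose neighbours differed by less than the larger SD of each pair. *Epcam* followed at 6.37 ± 2.05, *Cdh11* at 2.75 ± 1.01 and *Grhl2*, the lowest of the 10, at 0.290 ± 0.0858 CPM per kb. The *Zeb2* value used a transcript of 4020 bases with 47.85% of its counts, while another of 5624 bases held 34.59%, so its place in this order is not firm. The transcript whose length was used held 21.2% to 96.1% of the *Zeb1* counts in 1× glucose. For *Cdh11* it held 51.8% to 98.9%, so the levels per kb of both genes are not firm either. *Cdh2* and *Vim* did not differ beyond their spread, and with 2-DG their order was inverted, with *Vim* at 84.4 ± 12.3 and *Cdh2* at 56.4 ± 2.93 CPM per kb.

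**Figure D1:**
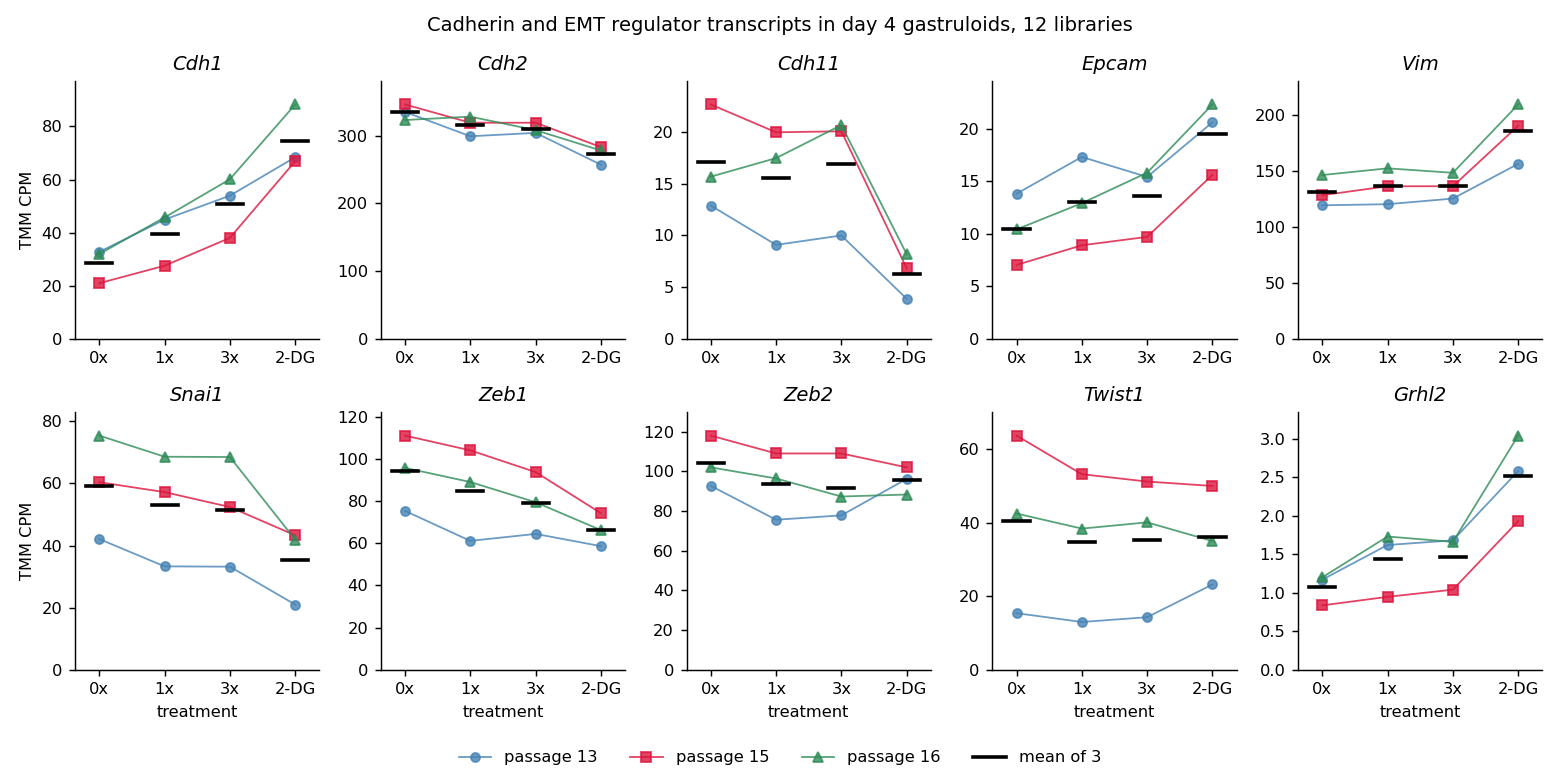
Level of each of the 10 genes in TMM CPM (vertical axes, from 0) in the 4 treatments (horizontal axes). Points are libraries, joined by ES cell passage (blue circles 13, red squares 15, green triangles 16), and black bars are means of 3. *Cdh1* and *Grhl2* are highest with 2-DG in every passage, *Cdh11* is lowest there, and the *Twist1* lines stay apart by passage.

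2-DG was compared with 1× glucose to ask how the inhibitor changed the adhesion program during mesoderm formation. *Cdh1* and *Vim* rose, and *Cdh2* and *Cdh11* fell. These are 4 of the 10 genes, where 17.6% of all tested genes were called (9.12% higher and 8.51% lower). The levels of 5 of the 10, these and *Grhl2*, did not overlap between the 3 and 3 libraries, against 35.4% of all genes. With passage as a block, 8 of the 10 genes were called, where 41.3% of all genes were (21.1% higher and 20.2% lower). *Epcam* and *Grhl2* then joined the genes that rose, and *Snai1* and *Zeb1* those that fell, while *Zeb2* and *Twist1* were called in neither fit. In 8 of the 10 genes the 3 passages moved the same way, against 62.9% of all genes. The median log2 fold change of the 10 genes was 0.04, and that of all genes was 0.

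Among the epithelial genes, *Cdh1*, which encodes the cadherin of epithelial adherens junctions, was at 44.9, 27.5 and 45.7 CPM in 1× glucose and at 68.4, 66.9 and 88.3 CPM with 2-DG. All 3 libraries with 2-DG lay above all 3 without it, and the passage 15 library, lowest in 1× glucose, came level with passage 13. Its log2 fold change was 0.92 (SE 0.24, adjusted p = 0.025 by edgeR, higher in 3 of 3 passages), a 1.89-fold rise. In fits without a block, the call was lost without the passage 15 library of 1× glucose (adjusted p = 0.0838) or of 2-DG (0.0512) and without the passage 16 library of 2-DG (0.0881). With passage as a block, the log2 fold change was 0.95 (SE 0.10, adjusted p = 5.14e-05).

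*Epcam* encodes an epithelial cell adhesion molecule that ES cells and early endoderm also carry. Its level was 17.3, 8.89 and 12.9 CPM in 1× glucose and 20.6, 15.6 and 22.3 CPM with 2-DG. The groups overlapped, since the passage 15 library with 2-DG lay below the passage 13 library without it, although each passage was higher with 2-DG. *Epcam* had a log2 fold change of 0.58 (SE 0.29, adjusted p = 0.207), and 0.62 (SE 0.12, adjusted p = 0.00195) with passage as a block. *Grhl2*, which encodes an activator of epithelial junction genes, was measured from 28 to 114 counts per library. It stood at 1.62, 0.947 and 1.73 CPM in 1× glucose and at 2.58, 1.93 and 3.04 CPM with 2-DG. No library with 2-DG was as low as any without it. Its log2 fold change was 0.81 (SE 0.28, adjusted p = 0.0727), and 0.82 (SE 0.12, adjusted p = 0.000423) with passage as a block.

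The mesenchymal cadherins were lower with 2-DG, by very different amounts. *Cdh2* was at 299, 319 and 328 CPM in 1× glucose and at 257, 283 and 278 CPM with 2-DG. The groups did not overlap, yet the difference was small against the level of the gene, with a log2 fold change of -0.21 (SE 0.05, adjusted p = 0.0198, lower in 3 of 3 passages). The *Cdh2* call was lost without the passage 15 (adjusted p = 0.0582) or passage 16 (0.0578) library of 1× glucose or the passage 13 library of 2-DG (0.0619). *Cdh11*, a cadherin of loose mesenchyme, fell from 9.09, 20.0 and 17.5 CPM to 3.86, 6.81 and 8.18 CPM. Here too no libraries overlapped, and the fitted value was -1.30 on the log2 scale (SE 0.39, adjusted p = 0.0413). It rests on few counts, 132 in the lowest library, and the call was lost without any of the 5 libraries other than passage 13 of 1× glucose, with adjusted p-values of 0.133 and 0.0985 (1× glucose, passages 15 and 16) and of 0.123, 0.0969 and 0.0542 (2-DG, passages 13, 15 and 16). With passage as a block both calls stood, with adjusted p = 0.00139 for *Cdh2* and 9.34e-05 for *Cdh11*.

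*Vim* encodes vimentin, the intermediate filament protein of mesenchymal cells and also of neural progenitors. It went the other way from these cadherins, from 120, 136 and 152 CPM in 1× glucose to 156, 190 and 209 CPM with 2-DG. The lowest library with 2-DG lay just above the highest in 1× glucose, and both groups had their lowest value in passage 13 and their highest in passage 16. The fitted difference on the log2 scale was 0.45 (SE 0.12, adjusted p = 0.0303, higher in 3 of 3 passages), and the adjusted p was 1.41e-05 with passage as a block. Without a block the *Vim* call was lost when the passage 13 (adjusted p = 0.0918) or 15 (0.0859) library of 1× glucose or the passage 15 (0.0904) or 16 (0.104) library of 2-DG was left out.

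Of the 4 EMT transcription factor genes, none was called without the block. *Snai1*, which encodes the Snail repressor expressed at the primitive streak and in presomitic mesoderm, was at 33.3, 57.2 and 68.6 CPM in 1× glucose and at 21.0, 43.3 and 41.9 CPM with 2-DG. The groups overlapped because passage 13 was low in both, while each passage was lower with 2-DG. The log2 fold change was -0.58 (SE 0.36, adjusted p = 0.307), and with passage as a block it kept that size with an SE of 0.08 and an adjusted p of 0.000343. *Zeb1*, a zinc-finger repressor of *Cdh1*, was at 61.1, 104 and 89.0 CPM against 58.6, 74.2 and 66.2 CPM with 2-DG. Its fall was smallest in passage 13, where both libraries were low. For *Zeb1* the log2 fold change was -0.35 (SE 0.21, adjusted p = 0.278), and -0.33 (SE 0.06, adjusted p = 0.00204) with passage as a block.

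*Zeb2*, the paralog that also acts in neural and mesodermal differentiation, was at 75.6, 109 and 96.4 CPM in 1× glucose and at 96.2, 102 and 88.3 CPM with 2-DG. It was higher with 2-DG in passage 13 and lower in passages 15 and 16, and its log2 fold change was 0.03 (SE 0.15, adjusted p = 0.926). *Twist1*, a helix-loop-helix factor of cranial and paraxial mesoderm, was at 13, 53.2 and 38.4 CPM against 23.2, 50.0 and 35.0 CPM. As for *Zeb2*, passage 13 was higher with 2-DG and the other passages lower. The log2 fold change of *Twist1* was 0.05 with an SE of 0.62, so that this fit could not resolve even a large change (adjusted p = 0.971), and with passage as a block it was 0.19 (SE 0.16, adjusted p = 0.387).

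**Figure D2:**
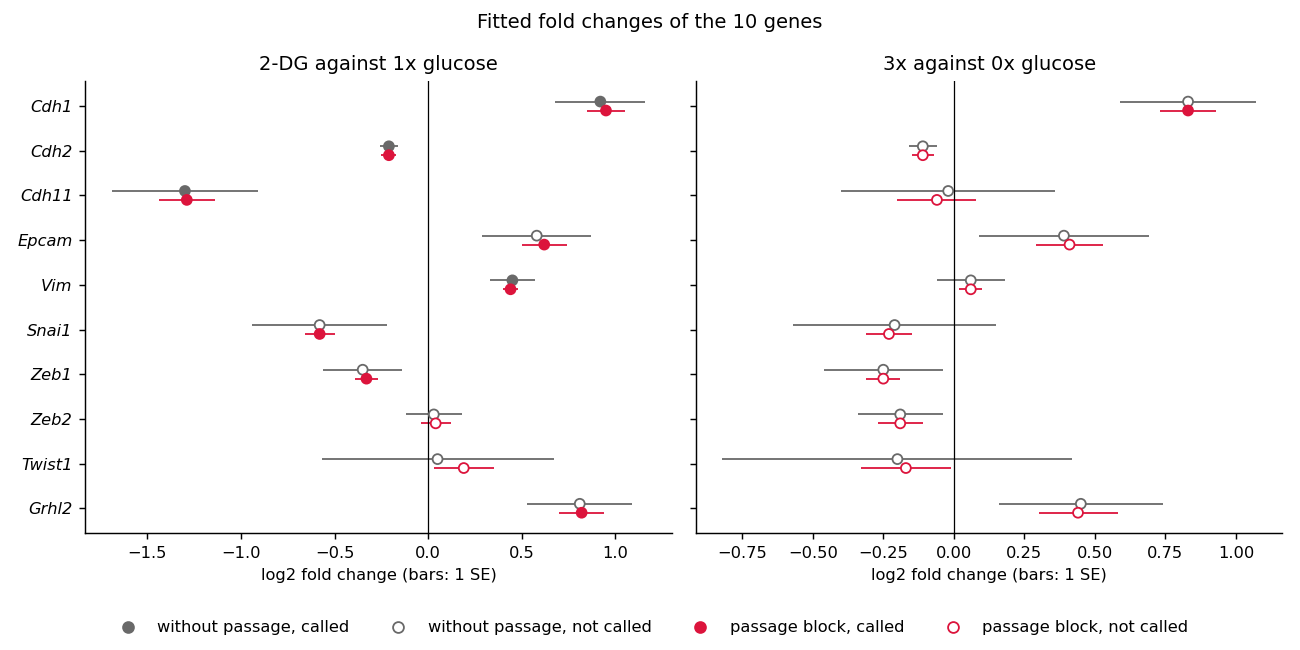
Fitted log2 fold changes (horizontal axes) of the 10 genes with bars of 1 SE, for 2-DG against 1× glucose and for 3× against 0× glucose, from edgeR without passage (grey) and with passage as a block (red). Filled points are called. With 2-DG, 4 genes are called without passage and 8 with the block, and between the glucose doses *Cdh1* alone is called, with the block. The comparison of doses was chosen after the order of *Cdh1* had been seen.

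The ratio of *Cdh2* to *Cdh1* CPM gives the cadherin balance of each library. It was 6.67, 11.6 and 7.19 in 1× glucose and 3.76, 4.24 and 3.15 with 2-DG. Every library with 2-DG thus had a lower ratio than every other library of its passage. The log2 ratio was 3.04 ± 0.43 (SD, n = 3) in 1× glucose and 1.88 ± 0.21 with 2-DG. It was 3.58 ± 0.40 in 0× glucose, with single ratios of 10.2, 16.5 and 10.2, and 2.64 ± 0.38 in 3× glucose, with 5.64, 8.40 and 5.13. In each passage the ratio therefore descended from 0× through 1× to 3× glucose and then to 2-DG. Most of the difference came from *Cdh1*, since *Cdh2* varied 1.35-fold over the 12 libraries and *Cdh1* 4.22-fold.

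**Figure D3:**
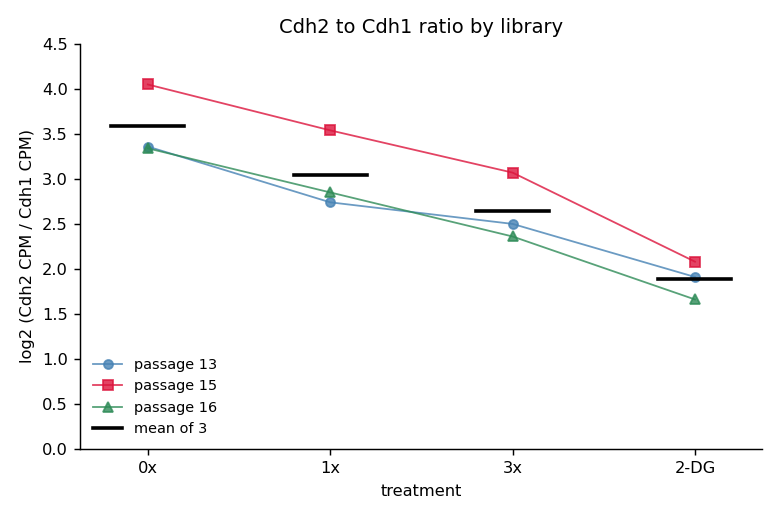
Log2 ratio of *Cdh2* to *Cdh1* CPM (vertical axis) by treatment (horizontal axis), with libraries joined by ES cell passage (blue circles 13, red squares 15, green triangles 16) and black bars for means of 3. The mean log2 ratio falls from 3.58 in 0× glucose to 1.88 with 2-DG, and passage 15 lies highest in each treatment.

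Glucose withdrawal and excess were compared with 1× glucose to ask whether the sugar itself changed these genes. None of the 10 was called in 0× against 1× glucose, where 0.0118% of all genes were called, and none with passage as a block (0.0177% of all genes). None was called in 3× against 1× glucose in either fit, where 0% of all genes were called in both. At an unadjusted p under 0.05, edgeR had 0 of the 10 in either comparison without the block (306 and 178 of all genes), and 6 and 1 of the 10 with it (1591 and 876 of all genes). At an adjusted p under 0.05, DESeq2 also called 0 of the 10 (12 and 2 of all genes). In 0× glucose the 3 passages moved the same way in 8 of the 10 genes, against 33.9% of all genes. *Cdh1*, *Epcam*, *Vim* and *Grhl2* were lower and *Snai1*, *Zeb1*, *Zeb2* and *Twist1* higher in each passage, with *Cdh1* at 32.7, 20.9 and 31.9 CPM (log2 fold change -0.47, SE 0.24, adjusted p = 1). The comparisons of 2-DG and of 0× glucose share the 1× glucose libraries, so their values are not independent.

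In 3× glucose, *Cdh1* was at 53.9, 38.0 and 60.1 CPM, higher than in 1× glucose in 3 of 3 passages (log2 fold change 0.36, SE 0.24, adjusted p = 1). Of the 10 genes, 3 moved the same way in all passages in this comparison (*Cdh1*, *Cdh11* and *Snai1*), and 32.2% of all genes did. *Cdh1* was the 1 gene of the 10 that ascended from 0× to 1× to 3× glucose within every passage, as 3.18% of all genes did. *Snai1* was the 1 that descended in every passage, as 2.25% did, from 42.1, 60.4 and 75.4 CPM in 0× glucose to 33.2, 52.4 and 68.5 CPM in 3× glucose, where the step from 1× to 3× was under 1 CPM in passages 13 and 16.

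The ends of the dose range were set against each other after the order of *Cdh1* had been seen. No gene of the 10 was called in 3× against 0× glucose without the block (0.0118% of all genes), and 1 was with it (0.802% of all genes). That gene was *Cdh1*, with a log2 fold change of 0.83 (SE 0.10, adjusted p = 0.0141 with the block, and SE 0.24 and adjusted p = 1 without it). The rise of *Cdh1* in every passage was known when this comparison was chosen, and the adjusted p does not cover that choice. The *Cdh1* libraries did not overlap between 0× and 3× glucose. Those of *Cdh2* did not either, at 323 to 346 CPM in 0× glucose and 304 to 319 CPM in 3× glucose. The share of all genes without overlap was not counted for this comparison, so these 2 genes cannot be set against it. In 9 of the 10 genes the passages moved the same way, against 41.2% of all genes, with *Cdh11* the exception. The adjusted p of DESeq2 for *Cdh1* was 0.135.

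2-DG and glucose withdrawal were also compared with each other, since both bear on the use of glucose. *Cdh1*, *Vim* and *Grhl2* were higher with 2-DG and *Cdh2* and *Cdh11* lower, 5 of the 10 genes against 18.9% of all genes, and with passage as a block 8 of the 10 were called against 43.1%. Libraries did not overlap for 7 of the 10, against 37.9% of all genes. The log2 fold change of *Cdh1* was 1.39 (SE 0.24, adjusted p = 0.00365), a 2.62-fold difference, and that of *Cdh2* was -0.29 (SE 0.05, adjusted p = 0.00365). Neither call was lost when any of the 6 libraries was left out. *Grhl2*, at 1.17, 0.836 and 1.20 CPM in 0× glucose, differed by 1.23 on the log2 scale (SE 0.29, adjusted p = 0.0145), and lost its call without the passage 16 library of 2-DG (0.0526) or passage 15 of 0× glucose (0.0604). *Cdh11* (log2 fold change -1.45, SE 0.39, adjusted p = 0.0262) lost its call without passage 13 (0.0865) or 15 (0.0666) of 2-DG or passage 15 (0.0924) or 16 (0.0511) of 0× glucose. *Vim* (0.50, SE 0.12, adjusted p = 0.0174) lost its call without passage 15 (0.0535) or 16 (0.062) of 2-DG or passage 13 (0.0557) or 15 (0.0581) of 0× glucose. *Epcam*, *Snai1* and *Zeb1* were called with the block, with adjusted p-values of 0.000147, 5.69e-05 and 0.000158 against 0.0568, 0.181 and 0.115 without it. Without a block *Epcam* was also called by DESeq2 (adjusted p = 0.0146) and by edgeR when the passage 13 library of 0× glucose was left out.

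These genes also differed with the ES cell passage. Between passages 13, 15 and 16, with treatment in the fit, 9 of the 10 genes were called, where 46.2% of all genes were. *Twist1* varied most, at 13 to 23.2 CPM in the 4 libraries of passage 13, 50.0 to 63.7 CPM in passage 15 and 35.0 to 42.5 CPM in passage 16. None of these ranges overlapped, and the log2 difference was 1.74 between passages 15 and 13 and 1.26 between 16 and 13 (adjusted p = 2.98e-05). *Snai1* (0.75 and 0.98), *Cdh11* (0.94 and 0.84) and *Zeb1* (0.55 and 0.34) were likewise higher in both later passages, as were *Zeb2* (0.36 and 0.13) and *Vim* (0.17 and 0.32). *Epcam* (-0.75 and -0.17) was lower in both, and *Cdh1* (-0.46 and 0.13) and *Grhl2* (-0.59 and 0.09) were lowest in passage 15. *Cdh2* was the gene not called (adjusted p = 0.113). The calls of *Cdh11* (adjusted p = 0.753), *Zeb1* (0.323) and *Zeb2* (0.995) were lost on the most abundant transcript alone, and none of the 9 was lost when a library was left out. Passage number cannot be told apart from other differences between the 3 rounds of culture.

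**Figure D4:**
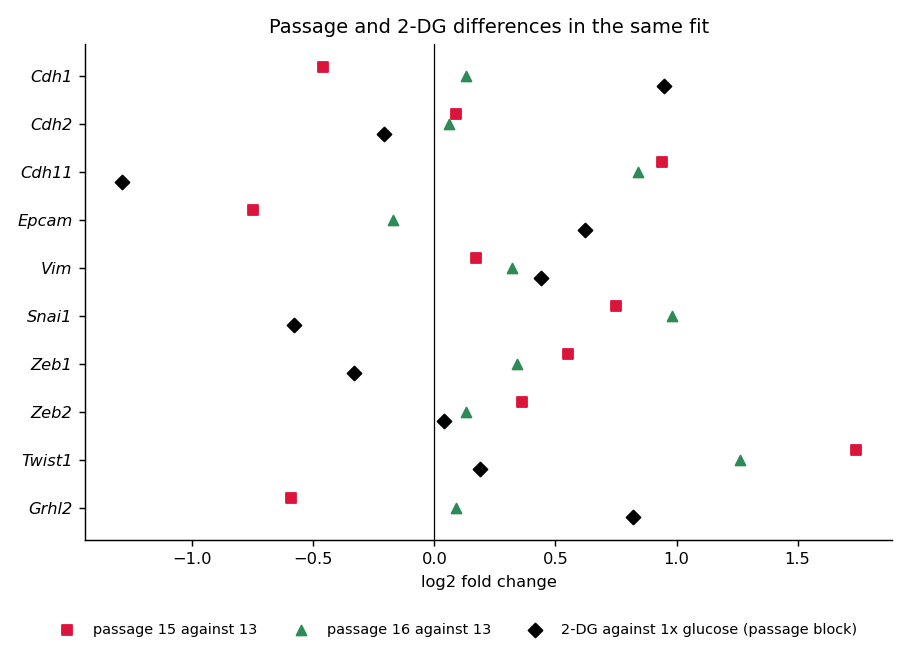
Log2 fold changes (horizontal axis) of the 10 genes between passages 15 and 13 (red squares), between passages 16 and 13 (green triangles) and between 2-DG and 1× glucose (black diamonds), all from the edgeR fit with treatment and passage. *Twist1* has the widest passage difference, 1.74, beside a 2-DG difference of 0.19, and *Cdh1* the reverse order, -0.46 beside 0.95.

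For genes with several RefSeq transcripts, the estimated counts moved between transcripts from library to library, so the gene totals were used. *Cdh1*, *Epcam*, *Vim*, *Snai1* and *Twist1* had 1 transcript each. The main transcript of *Cdh2* held 98.9% to 99.9% of its counts, but that of *Cdh11* held 0% to 100% and that of *Zeb1* 21.2% to 97.5%. *Zeb2* was split between transcripts with 34.7% to 71.6% and 20.9% to 52.0% of its counts. On the most abundant transcript alone, none of the 10 genes was called with 2-DG against 1× glucose, those with 1 transcript included (*Cdh1* with adjusted p = 0.0909 and *Vim* with 0.104), and fewer genes were called over the whole table. In that fit the log2 fold change of *Cdh11* was again -1.30, with an adjusted p of 0.692. *Cdh2*, *Zeb1*, *Zeb2* and *Grhl2* overlap genes on the opposite strand in the annotation. The strand setting of the authors' counting was not given in the sources used here, so reads of either strand cannot be told apart for these genes. *Cdh11* overlaps *Gm45257*, *9430099M06Rik*, *Gm26301* and *Gm45258* on its own strand, so strand does not separate its reads from theirs.

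Other genes of the pathway were followed as lists, whose counts stand against the 9.12% of all genes called higher and 8.51% called lower with 2-DG (21.1% and 20.2% with the block). Of 33 epithelial junction and keratin genes, 30 were tested, of which 11 rose and 0 fell with 2-DG, and 18 rose and 1 fell with passage as a block. The median log2 fold change of the list was 0.55, and 29 of the 30 values were above 0, against a median of 0 over all genes. *Dsp*, which encodes the desmosomal plaque protein desmoplakin, was at 133, 126 and 159 CPM in 1× glucose and at 208, 229 and 230 CPM with 2-DG (log2 fold change 0.67, SE 0.09, adjusted p = 0.00104). The tight junction claudin gene *Cldn3* was at 1.21, 0.368 and 0.562 CPM and at 5.77, 3.38 and 4.98 CPM with 2-DG (2.71, SE 0.41, adjusted p = 0.00199). The junctional adhesion molecule gene *F11r* was at 218, 217 and 235 CPM and at 295, 289 and 298 CPM (0.40, SE 0.07, adjusted p = 0.00301). In all 3 genes the groups were apart, and no call was lost when a library was left out. *Cldn4*, whose promoter is shown above, rose by 1.36 (SE 0.26, adjusted p = 0.00577) on the log2 scale. The others called were *Patj*, *Cgn*, *Dsc2*, *Prss8*, *Lamb3*, *Krt18* and *Dsg2*, with log2 fold changes from 0.55 to 2.24. Without 1 library, the calls of *Lamb3* and *Dsg2* were each lost in 5 of 6 fits (adjusted p from 0.0547 to 0.088 and from 0.0723 to 0.131) and that of *Krt18* in 4 (0.0512 to 0.0866), while the other 8 calls of the list were lost in none. In this list 3 genes were too low to test, among them *Cldn23* and *Krt7*.

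Of 12 tested epithelial regulators, 2 rose and 0 fell (3 and 1 with the block, list median 0.18). *Esrp1*, which encodes an epithelial splicing factor, was at 9.44, 6.18 and 10.6 CPM in 1× glucose and at 21.3, 19.3 and 25.4 CPM with 2-DG (log2 fold change 1.33, SE 0.27, adjusted p = 0.00871). *Tfap2c*, an AP-2 factor of ectoderm and germ cells, was at 0.988, 1.08 and 1.69 CPM and at 4.30, 2.70 and 4.24 CPM (1.58, SE 0.28, adjusted p = 0.00445). The libraries of both genes were apart, and neither call was lost when a library was left out. *Grhl3*, the paralog of *Grhl2*, was at 44.0, 24.8 and 26.3 CPM against 33.4, 33.6 and 34.7 CPM (log2 fold change 0.10, SE 0.34, adjusted p = 0.886).

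Among 17 further EMT transcription factor genes tested, 2 rose and 1 fell (2 and 6 with the block, list median -0.19). These 3 calls of 17 are no larger a share than the 17.6% of all genes called. *Sox9* and *Prrx1*, which act in neural crest, cartilage and limb mesenchyme, rose by 1.72 (SE 0.34, adjusted p = 0.00741) and 0.68 (SE 0.15, adjusted p = 0.0117) on the log2 scale. *Hmga2*, which encodes an architectural chromatin protein, was at 310, 477 and 443 CPM in 1× glucose and at 210, 289 and 288 CPM with 2-DG (-0.64, SE 0.19, adjusted p = 0.0374). All 3 of its libraries with 2-DG lay below those without, but its call was lost without passage 15 (adjusted p = 0.125) or 16 (0.096) of 1× glucose or passage 13 (0.114), 15 (0.0626) or 16 (0.0612) of 2-DG. *Snai2*, the paralog of *Snai1*, was low at 2.20, 1.00 and 1.53 CPM against 1.84, 0.763 and 1.36 CPM (log2 fold change -0.26, SE 0.44, adjusted p = 0.745).

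The mesenchymal effectors went both ways, with 3 of 21 tested genes higher and 3 lower (5 and 9 with the block, list median -0.05). Those that rose were *Sparc*, for a matrix glycoprotein (log2 fold change 1.04, SE 0.16, adjusted p = 0.00199), *Lgals1*, for galectin-1 (0.89, SE 0.18, adjusted p = 0.00717), and *Ncam1*, for the neural cell adhesion molecule (0.45, SE 0.10, adjusted p = 0.0101). Those that fell were *Ccn1*, for a matricellular protein (-1.11, SE 0.21, adjusted p = 0.00615), *Acta2*, for smooth muscle actin (-1.13, SE 0.23, adjusted p = 0.00898), and *Pdgfrb*, for a growth factor receptor (-0.33, SE 0.07, adjusted p = 0.0141, and 0.0532 without passage 15 of 2-DG). *Fn1*, for the matrix protein fibronectin, was at 677, 1470 and 1850 CPM in 1× glucose and at 470, 1220 and 1200 CPM with 2-DG. Its groups overlapped, and its log2 fold change of -0.47 (SE 0.46, adjusted p = 0.542) passed with passage as a block (adjusted p = 0.00439).

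Of the other cadherin family genes, 10 of 18 could be tested, of which 2 rose and 1 fell (2 and 3 with the block, list median -0.10). *Cdh13*, the cadherin without a cytoplasmic tail, was at 10.5, 5.97 and 4.75 CPM in 1× glucose and at 22.0, 16.6 and 14.9 CPM with 2-DG (log2 fold change 1.33, SE 0.32, adjusted p = 0.0177). *Cdh10*, expressed in brain, rose by 0.97 (SE 0.23, adjusted p = 0.017) and *Cdh20* fell by 0.87 (SE 0.16, adjusted p = 0.00584) on the log2 scale. The calls of *Cdh13* and *Cdh10* were lost without passage 15 (adjusted p = 0.0735 and 0.0702) or 16 (0.0574 and 0.058) of 1× glucose or passage 13 of 2-DG (0.0634 and 0.0639). *Cdh3*, for P-cadherin, was at 4.85, 3.03 and 5.88 CPM against 3.72, 3.71 and 5.83 CPM (-0.05, SE 0.31, adjusted p = 0.932). None of 13 catenin and nectin-afadin genes was called, where 4 rose and 1 fell with passage as a block (list median 0.03). *Ctnnb1*, for the β-catenin that links cadherins to the cytoskeleton and transmits Wnt signals, was at 1220, 1170 and 1080 CPM in 1× glucose and at 1220, 1130 and 1100 CPM with 2-DG. The gene of this list with the lowest p was *Ctnnd2*, for a neural δ-catenin (log2 fold change 0.72, SE 0.26, adjusted p = 0.0827). With passage as a block *Ctnnd2* was called higher (0.73, adjusted p = 0.000452).

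**Figure D5:**
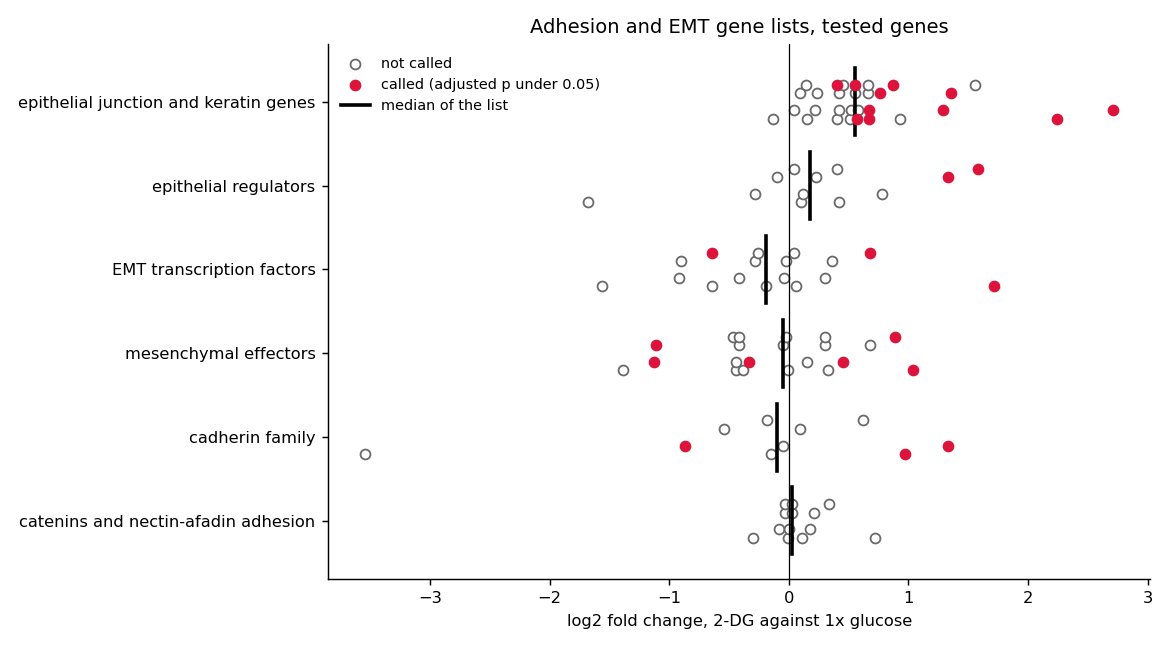
Log2 fold change between 2-DG and 1× glucose (horizontal axis) of each tested gene in 6 lists (rows), with called genes filled in red, other genes open, and a black bar for the median of the list. The epithelial junction and keratin genes lie almost all to the right of 0 (median 0.55), while the other medians lie between -0.19 and 0.18. The open point at the far left of the cadherin family is *Cdh5*, with no counts in 2 of the 3 libraries with 2-DG, so its fitted value is no bound.

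Markers of the tissues that gastruloids can hold were counted against the same shares of all genes, 9.12% higher and 8.51% lower. Of 11 tested neural markers 5 rose (*Tubb3*, *Irx3*, *Neurog2*, *Sox1* and *Pax6*, and 7 with 1 lower in the block), with a summed level of 200 to 494 CPM in 1× glucose and 259 to 499 CPM with 2-DG. Of 15 mesoderm markers 2 fell (*T* and *Hes7*, and 7 with the block), with sums of 1560 to 2140 CPM and 1080 to 1830 CPM. *T*, for the primitive streak factor Brachyury, was at 322, 167 and 187 CPM and at 64.6, 67.1 and 96.1 CPM. Of 9 pluripotency markers 1 rose (*Tfcp2l1*, and 5 with the block), with sums of 68.0 to 120 CPM and 90.1 to 116 CPM. Of 6 surface ectoderm markers 2 rose (*Dlx5* and *Krt18*, which is also in the epithelial list, and 4 with the block), with sums of 16.7 to 25.0 CPM and 26.8 to 34.8 CPM, while *Trp63*, which defines stratified epithelium, was at 0 in all 6 libraries. *Krt8* and *Krt18*, both also in the epithelial list, held most of these sums. *Krt8* was at 9.81, 10.1 and 15.5 CPM and at 13.4, 14.7 and 19.4 CPM with 2-DG. *Krt18* was at 5.71, 3.55 and 5.19 CPM and at 9.66, 7.44 and 9.27 CPM with 2-DG. Of 6 neural crest markers 1 rose (*Sox9*, also among the EMT factors, and 2 fell with the block), with sums of 17.3 to 36.3 CPM and 46.2 to 58.3 CPM. *Sox9* alone was at 6.26, 13.5 and 14.6 CPM and at 32.2, 42.7 and 38.1 CPM with 2-DG, where it held most of that sum. *Sox10* was at no more than 0.0878 CPM in these libraries. Definitive endoderm markers (9 tested, 1 higher and *Trh* lower, and 3 and 3 with the block), embryonic fibroblast markers (7 tested, *Pdgfrb* lower, and 1 higher and 3 lower with the block) and endothelial markers (7 tested, *Etv2* lower, and 3 with the block) summed to 35.3 to 206, 91.3 to 157 and 3.36 to 10.7 CPM in 1× glucose and to 39.5 to 91.0, 91.7 to 121 and 1.93 to 2.40 CPM with 2-DG. In the endoderm sum *Cer1* alone was at 0.615, 161 and 50.7 CPM in 1× glucose and at 5.91, 57.6 and 13.8 CPM with 2-DG. The call of *T* was lost without the passage 13 (adjusted p = 0.0535) or 15 (0.0577) library of 2-DG, and those of *Neurog2*, *Sox1*, *Pax6*, *Trh*, *Tfcp2l1*, *Krt18*, *Dlx5* and *Etv2* were each lost in 2 to 5 of the 6 fits without 1 library, with adjusted p-values of 0.0504 to 0.181. Without the block, the 1 or 2 calls in a direction among mesoderm, pluripotency, neural crest, endoderm, fibroblast and endothelial markers are about as many as those shares give for lists of these sizes. The part of these tissues in the cadherin values was not tested, and in whole gastruloids fewer cells of a type and less RNA per cell cannot be told apart.

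Across the 12 libraries, the genes whose log2 CPM was most like each of the 10 were sought among tested genes with a mean of at least 5 CPM, by Pearson's r, as a description of libraries that share treatments and passages. For *Cdh1* these were *Rhbdf2* (r = 0.980) and the splicing factor gene *Esrp1* (0.979). *Grhl2* was most like the keratin gene *Krt18* (0.977) and the pluripotency gene *Pou5f1* (0.970), and *Epcam* was most like *Stxbp2* (0.977) and also *Pou5f1* (0.968). The epithelial genes thus had epithelial or pluripotency genes among their closest profiles. *Cdh2* was most like the non-muscle myosin gene *Myh10* (0.990) and *Itsn1* (0.983), and *Cdh11* like *Ryr3* (0.985) and *Cttnbp2nl* (0.983). *Vim* paired with *Klf6* and *Iqgap1* (both 0.971). *Snai1* lay nearest to *Dpysl5* (0.992) and *Rnf213* (0.988), *Zeb1* to *Itga9* (0.989) and *Arl5b* (0.985), and *Zeb2* to *Fndc3c1* (0.958) and *Dync2h1* (0.946). *Twist1*, whose profile followed the passages, was most like *Lrig1* (0.990).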

How the data were processed

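PolyA RNA of 12 libraries was prepared with a directional kit and sequenced, as 3 libraries in each of 4 groups. The expected counts per RefSeq transcript were deposited by the authors, as whole numbers estimated with StringTie after Trim Galore, HISAT2, SAMtools and Picard on the mm10 build, per the submitters' processing notes, and versions and strand settings are not given in the sources used here. The authors' tables of DESeq2 fold changes and adjusted p-values were not used.

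All 120312 transcripts were matched by accession to symbols of the RefSeq table of GRCm38.p6 and added up to 38911 genes, of which 26382 had counts. Groups came from sample titles. A single model over all 4 groups was fitted with edgeR 4.0.16 under R 4.3.3 (TMM, filterByExpr, glmQLFit and two-sided glmQLFTest), with Benjamini-Hochberg adjustment over 16966 genes and a threshold of 0.05. SEs were taken from the F statistic. Levels per kb used the length of the most abundant transcript. The script was tested on simulated data. The authors' labels give each library of a group an ES cell passage, so that replicate numbers pair libraries through a shared passage. Deviations from group means correlated at 0.0963 to 0.623 in 18 pairs of the same passage and at -0.44 to 0.191 in 36 other pairs. Libraries are separate cultures only as far as the passage labels tell, and p-values measure the spread between them. Depth sets counting error only.

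The alternatives were passage as a replicate block, median-of-ratios factors, no filter on low counts, DESeq2 1.42.0, a count of each gene from its most abundant transcript, models restricted to the pair of groups compared, and leaving out each library. For comparisons of treatments, all but the first of these were fitted without the passage block. The comparison of 3× with 0× glucose was chosen after seeing the data. The 10 genes and the 14 lists of pathway and tissue markers were chosen with earlier results of these data known. Genes named from a list were up to 3 of each direction with the lowest p among those called with 2-DG against 1× glucose, or the 1 with the lowest p, and for each of the 10 genes the 2 with the highest Pearson correlation of log2 CPM (prior count 2). Others named from a list (*Cldn4*, the further called junction genes, *Grhl3*, *Snai2*, *Fn1*, *Cdh3*, *Cdh5*, *Ctnnb1* and the remaining tissue markers) were named after their values were seen. A few genes that these rules select are not reported here.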

Additional observations from a re-analysis of the deposited data

How the results depend on the processing

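With passage as a replicate block, genes called rose from 2990 to 7001 for 2-DG against 1× glucose, from 3207 to 7305 for 2-DG against 0× glucose and from 2 to 136 for 3× against 0× glucose, and genes called among the 10 rose from 4 to 8, from 5 to 8 and from 0 to 1. The block changed no other call among the 10. With the most abundant transcript alone, genes called were 653 (2-DG against 1×, 0 of the 10), 775 (2-DG against 0×, 2 of the 10), 2 (3× against 1×), 1 (3× against 0×) and 1879 (passages, against 7840). A fit of only the groups compared called 1896 genes and 1 of the 10 for 2-DG against 1×, and 0 genes for 0× against 1× and for 3× against 0×. DESeq2 called 12 (0× against 1×), 2 (3× against 1×) and 31 (3× against 0×). Median-of-ratios factors and no filter on low counts kept each of these counts within 1.5 times, but without the filter *Cdh11* missed the threshold (adjusted p = 0.0517). The cause of these shifts was not tested.

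Leaving out 1 library gave 1734 to 2352 genes and 0 to 3 of the 10 (2-DG against 1×), 2051 to 2619 genes and 2 to 5 of the 10 (2-DG against 0×), and 1 to 3 genes (0× against 1×, and 3× against 0×).

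No called gene of the 10 changed sign. Uncalled log2 values did, for the most abundant transcript alone in *Zeb2* (-0.21, 2-DG against 1×) and *Zeb1* (1.03, 3× against 1×), and with no filter in *Vim* (-0.01, 3× against 1×). Leaving out 1 library spanned 0 for *Zeb2* (-0.10 to 0.14) and *Twist1* (-0.34 to 0.48) in 2-DG against 1×, and for *Twist1* (-0.55 to 0.32) in 2-DG against 0×. In 0× against 1× glucose it did so for *Cdh11* (-0.13 to 0.36), *Vim* (-0.14 to 0.03), *Snai1* (-0.09 to 0.39), *Zeb1* (-0.03 to 0.32) and *Twist1* (-0.27 to 0.65). In 3× against 1× glucose it did so for *Cdh2* (-0.06 to 0.01), *Cdh11* (-0.15 to 0.39), *Epcam* (-0.15 to 0.32), *Vim* (-0.07 to 0.09), *Snai1* (-0.31 to 0.19), *Zeb1* (-0.28 to 0.07), *Zeb2* (-0.19 to 0.08), *Twist1* (-0.38 to 0.45) and *Grhl2* (-0.20 to 0.21). In 3× against 0× glucose it did so for *Cdh11* (-0.19 to 0.25), *Vim* (-0.00035 to 0.15), *Snai1* (-0.47 to 0.03) and *Twist1* (-0.59 to 0.29).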

Other observations

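Between the ends of the glucose range, 3× against 0×, 28 of the 30 tested epithelial junction and keratin genes had a log2 fold change above 0 (list median 0.47), and none was called without passage in the fit. Pluripotency markers (8 of 9 above 0, list median 0.33) and surface ectoderm markers (5 of 6, list median 0.45) lay above 0 as well. The surface ectoderm list shares *Krt8* and *Krt18* with the junction list. Neural markers also lay mostly above 0 (8 of 11, list median 0.24). Mesoderm markers (4 of 15 above 0, list median -0.41), EMT transcription factors (4 of 17, -0.21) and endothelial markers (2 of 7, -0.65) lay mostly below 0. The medians of the other lists were between -0.03 and 0.27. The part of these lists in the junction values was not tested. With passage as a block, where 0.802% of all genes were called, *Cldn4* (log2 fold change 0.73, adjusted p = 0.0431), *Cldn6* (0.60, adjusted p = 0.0159) and *Krt8* (0.58, adjusted p = 0.0385, also a surface ectoderm marker) were called higher in 3× glucose. So were *Esrp1* among 12 epithelial regulators (0.99, adjusted p = 0.0119) and the pluripotency marker *Nanog* (1.23, adjusted p = 0.0159). Of 21 mesenchymal effectors, *Pdgfra*, for a receptor of mesodermal cells, was called lower (-0.29, adjusted p = 0.0182). These genes were named after their values were seen, and the values are single-gene edgeR results of the fit with the block, adjusted over all genes.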
